A study of Homo sapiens with 6 samples.

Results

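Fibrinogen is the soluble plasma protein that thrombin turns into the fibrin of a clot, and its 3 chains are encoded by FGA, FGB and FGG. Together with the fibrinogen-like genes FGL1 and FGL2 they form the set of 5 genes described here. The genes were chosen from their symbols, with the direction of the chain genes in these arrays already known, and every array feature carrying one of the symbols was taken: 15 of 45033 features, of which 4 belonged to FGA, 2 to FGB, 4 to FGG, 3 to FGL1 and 2 to FGL2. The values came from HCC-LM3, a human hepatocellular carcinoma line known for its metastasis in grafted mice. Cells carried a lentiviral short hairpin RNA against ASPP2 (shASPP2) or a lentiviral control hairpin (shNon), and RNA was taken 1 week after infection. Each group had 3 arrays from separate cultures, all in the same medium and all infected, so that vector and infection were common to both groups. ASPP2, encoded by TP53BP2, binds p53 and polarity proteins. The sources used here do not give the hairpin sequence, how many hairpins were tried, the selection of infected cells or the share infected.

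The alpha, beta and gamma chains are made mainly by hepatocytes, paired into a hexamer in the endoplasmic reticulum and secreted into plasma. The 3 genes lie side by side on chromosome 4. Their transcription depends on liver factors such as the C/EBP proteins, and it rises in the acute phase through interleukin 6 and STAT3. FGL1 (hepassocin) is a liver-secreted protein that also binds the inhibitory T cell receptor LAG3. FGL2 exists as a membrane prothrombinase and as a secreted ligand of the inhibitory Fc receptor FCGR2B, and is best known from macrophages, endothelium and regulatory T cells.

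Across the series, median feature intensity lay between 111 and 122, and the shASPP2 arrays were more alike (r = 0.983 to 0.985) than the shNon arrays (r = 0.958 to 0.972), with 0.960 to 0.978 across groups. Random-sequence probes, which match no transcript, read 30.4 to 30.8 in shASPP2 and 31.8 to 33.3 in shNon. A feature is called dim below where it was not over 2 times that level on an array. The target TP53BP2 had intensities of 228, 216 and 147 in shASPP2 and 332, 488 and 452 in shNon, without overlap. The log2 fold change was -1.11 (SE 0.249), with limma adjusted p = 0.203, and -1.41 on its second feature. Marker and list genes were read on the feature with the highest mean intensity, and dim or bright refers to that feature. The liver label was only partly borne out by the markers. The hepatocyte genes KRT18, KRT8, APOH, TF, AMBP and RBP4 were bright on all 6 arrays, whereas AHSG, APOB, TTR and GPC3 were dim on most or all of them. Albumin itself read 63.1 to 71.9 in shASPP2 and 82.4 to 93.1 in shNon, just over the dim limit.

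The region before each chain gene is shown because all 3 genes were lower in shASPP2. The 250 bases before the annotated start come from RefSeq (GRCh38.p14), at chr4:154590743-154590992 on the minus strand for FGA, chr4:154562730-154562979 on the plus strand for FGB and chr4:154612657-154612906 on the minus strand for FGG. For FGB the table held 2 start windows and the outermost was used. Each sequence runs 5′ to 3′ along its gene, and capitals mark CTGGGA (the core of the interleukin 6 response element) and TTGCNNAA (a C/EBP core) on either strand.
FGA: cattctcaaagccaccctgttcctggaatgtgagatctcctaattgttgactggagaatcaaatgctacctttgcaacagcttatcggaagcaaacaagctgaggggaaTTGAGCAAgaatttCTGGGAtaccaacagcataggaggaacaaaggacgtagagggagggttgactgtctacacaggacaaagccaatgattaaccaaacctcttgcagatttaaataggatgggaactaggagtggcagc
FGB: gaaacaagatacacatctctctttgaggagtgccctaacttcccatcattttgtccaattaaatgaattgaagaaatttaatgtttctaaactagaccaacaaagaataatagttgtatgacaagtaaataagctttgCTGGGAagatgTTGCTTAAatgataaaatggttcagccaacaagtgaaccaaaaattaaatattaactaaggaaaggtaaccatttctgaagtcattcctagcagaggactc
FGG: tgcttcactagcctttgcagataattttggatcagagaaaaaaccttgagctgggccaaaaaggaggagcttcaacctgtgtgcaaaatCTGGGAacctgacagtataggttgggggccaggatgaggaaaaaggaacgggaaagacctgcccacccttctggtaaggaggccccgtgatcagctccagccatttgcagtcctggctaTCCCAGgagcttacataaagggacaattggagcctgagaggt

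Counted back from -1 at the last base before the start, CTGGGA lay at -127 to -122 in FGA, at -112 to -107 in FGB and at -161 to -156 in FGG, each on the gene's own strand. FGG held a further copy on the opposite strand at -42 to -37. The C/EBP letters were found at -141 to -134 in FGA, on the opposite strand, and at -101 to -94 in FGB. The FGG window did not hold the C/EBP letters, and none of the 3 windows held an E-box (CACGTG), the glucocorticoid receptor core (letters TGTTCT) or the usual letters TATAAA of a core promoter box. No marked motif overlapped another. Such short motifs are common: of 35116 promoter windows of the same length, 28.7% held the interleukin 6 core, 9.05% the C/EBP core, 6.34% the E-box, 10.7% the core promoter box and 12.4% the glucocorticoid receptor core. The arrays measured no binding at these sites.

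FGG, the gamma chain that carries the D-region sites for polymerisation and for platelet integrin binding, had the largest difference of the 5 genes. Its signal in shASPP2 was 14.2% to 21.9% of that in shNon over 4 features. The feature for the gamma-A transcript (NM_000509, chromosome 4, 155744735 to 155753352, hg18) read 260.1, 283 and 195 in shASPP2, against 1421, 1677 and 2103 in shNon. Every shASPP2 array lay far below every shNon array, with a log2 fold change of -2.82 (SE 0.232, 95% interval -3.36 to -2.27). The feature for the gamma-prime transcript (NM_021870, 155745177 to 155753352), which ends in the longer, thrombin-binding tail, averaged 303 ± 19.9 in shASPP2 and 1744 ± 315 in shNon (SD, n = 3 each), a log2 fold change of -2.51 (SE 0.195). The 95% intervals of these features overlapped, and whether their probes tell the transcripts apart was not analysed here. A further feature, CR606086, read 272, 279 and 278 in shASPP2 and 1275, 1320.1 and 1593 in shNon. The last, CR597461, read 274, 210.4 and 193 in shASPP2 and 962, 1006 and 1104 in shNon. Their log2 fold changes were -2.33 (SE 0.174) and -2.19 (SE 0.198), again without overlap of the groups.

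FGA encodes the alpha chain, which is crosslinked in the clot and is the main substrate of plasmin. Its brightest feature (BC020764, chromosome 4, 155725878 to 155731346, hg18) read 1615, 1570.4 and 1418 in shASPP2, against 5344, 4487 and 5449 in shNon. The log2 fold change was -1.73 (SE 0.176, 95% interval -2.14 to -1.32), and 30.2% of the shNon signal was left. The feature of the common alpha transcript, NM_021871, averaged 1309 ± 137 in shASPP2 and 3669 ± 190 in shNon (SD, n = 3 each), with a log2 fold change of -1.49 (SE 0.174). All arrays of shASPP2 were lower here too. BC070246 averaged 583 ± 77.3 in shASPP2 and 1854 ± 306 in shNon, a log2 fold change of -1.66 (SE 0.201). NM_000508 spans a longer stretch (155723729 to 155731347) and represents the alpha-E transcript, whose product has an extra globular end. It was by far the closest to the random-probe level, at 91.0, 77.7 and 77.4 in shASPP2 and 230.0, 225 and 255 in shNon. The difference was -1.53 log2 (SE 0.172) on the deposited scale and -1.997 after the random-probe level of each array had been subtracted, a step chosen after seeing the data.

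FGB encodes the beta chain, whose synthesis limits fibrinogen assembly in cultured hepatoma cells. BC106760 (chromosome 4, 155703612 to 155711377, hg18) read 1330.4, 1027 and 1026 in shASPP2, against 3513, 3607 and 4061 in shNon. NM_005141 (155703595 to 155711688) read 985, 977 and 1106 in shASPP2, against 2866, 3197 and 2963 in shNon. The groups were apart on both features. The log2 fold changes were -1.73 (SE 0.188, 95% interval -2.17 to -1.29) and -1.56 (SE 0.167, 95% interval -1.95 to -1.17), so that 30.1% and 34.0% of the shNon signal was left.

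**Figure D1:**
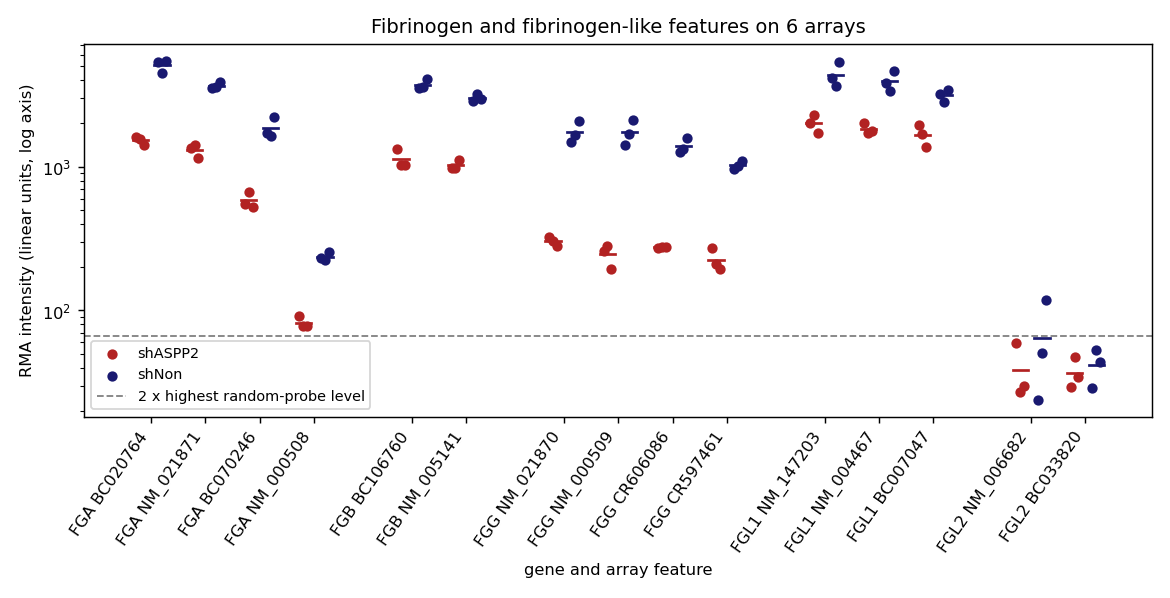
Intensity of each of the 15 member features (log axis, arbitrary linear units) on every array, with shASPP2 left of shNon within a feature; points are arrays and short lines are group means. The 13 features of FGA, FGB, FGG and FGL1 have all shASPP2 points below all shNon points, and the 2 FGL2 features lie at the foot of the scale with mixed points.

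All 10 chain features were past a limma adjusted p of 0.05 and had non-overlapping groups. Over all 45033 features, 62 (0.138%) were past that threshold, 38 of them (0.0844%) lower in shASPP2, and 9.17% had all shASPP2 arrays below all shNon arrays. The genes were picked with this contrast in view, so nothing is read from the count. Among all features ordered by log2 fold change, the 4 FGG features held places 9, 11, 14 and 15 from the low end, and the FGA and FGB features places 30 to 64. The features of 1 gene can share exons, and probe positions within a transcript were not analysed here, so they are not independent readings. In RNA from a whole culture, fewer cells making fibrinogen and less fibrinogen RNA per cell cannot be told apart. With shNon array 1 or array 3 left out, 3 of the 10 stayed past the threshold, and with any of the other 4 arrays left out none did, although the log2 fold changes of the 10 stayed between -2.95 and -1.41.

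Of the 13 member features that were over the dim limit on every array, 12 had their highest shNon value on shNon array 3, and 10 had their lowest shASPP2 value on shASPP2 array 3. These features belong to FGA, FGB, FGG and FGL1 only and are not independent readings. The same shares over all features were not computed, so nothing particular to the members is read from these counts. Over all features, the median SD was 0.23 log2 in shASPP2 and 0.31 log2 in shNon. Summed over the 15 hepatocyte markers, intensity was 25612 to 29992 in shASPP2 and 20301 to 22103 in shNon, most of it from the simple-epithelium keratins KRT8 and KRT18. The median log2 fold change over these markers was -0.01, and TF (-0.39), ALB (-0.34) and APOA2 (-0.71, dim) were lower with separate groups, while KRT8, KRT18, RBP4 and TTR were higher with separate groups. Summed over 8 endothelial markers, intensity was 1214 to 1379 in shASPP2 and 2161 to 2329 in shNon, most of it from PECAM1. The markers KDR, VWF, ERG and TEK were dim on all 6 arrays, while STAB2, CDH5 and CLEC4G were over the dim limit on some. The part of this marker signal, mostly PECAM1, in the results was not tested.

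FGL1 differed in the same direction by a smaller amount. NM_147203 (chromosome 8, 17766179 to 17797193, hg18) read 2005, 2284 and 1725 in shASPP2, against 4128, 3656 and 5329 in shNon. NM_004467 read 2019, 1716 and 1769.7 in shASPP2, against 3821, 3373 and 4647 in shNon. BC007047 read 1941, 1689 and 1379 in shASPP2, against 3218, 2817 and 3397 in shNon. The groups did not overlap on any of the 3 features, and between 46.1% and 52.7% of the shNon signal was left. The log2 fold changes were -1.12 (SE 0.215, 95% interval -1.62 to -0.61), -1.10 (SE 0.194) and -0.92 (SE 0.199). None of the 3 was past the threshold in the fit used for the chains. All 3 were in the fit with trend and robust variance, where 1.09% of all features were called lower.

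FGL2 lay near the random-probe level. NM_006682 (chromosome 7, 76662534 to 76667080, hg18) read 59.2, 27.2 and 29.97 in shASPP2, against 24.0, 50.7 and 119 in shNon, and BC033820 read 29.2, 47.3 and 34.5 in shASPP2, against 28.7, 53.3 and 44.0 in shNon. A single array of shNon put NM_006682 over the dim limit, and no array did so for BC033820. The groups overlapped on both. The log2 fold changes of -0.53 (95% interval -1.87 to 0.82) and -0.17 (95% interval -0.85 to 0.52) leave both directions possible, and without shNon array 3 the first became 0.06. Of the 12 macrophage and T cell markers, of cells known for FGL2, 4 were dim on all 6 arrays: CD14, CSF1R, CD3E and CD163. MARCO was over the dim limit on 2 arrays of each group, and LYZ and CD8A on 2 shASPP2 arrays. PTPRC, CD4, CD3D and FOXP3 were over it on 1 array each. Over the 12 markers of that list the summed level was 3981 to 4534 in shASPP2 and 3066 to 4051 in shNon, most of it from CD68. CD68, which tumour lines also express, was bright at 3425 to 3984 in shASPP2 and 2618 to 3493 in shNon.

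**Figure D2:**
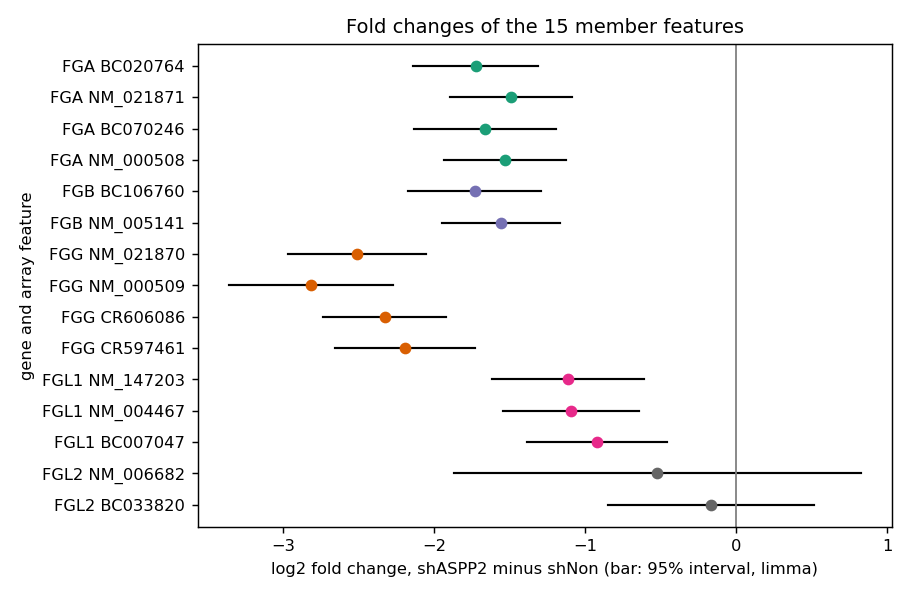
Log2 fold change (shASPP2 minus shNon) of each member feature, with limma's 95% interval as a bar. FGG lies between -2.82 and -2.19, FGA and FGB between -1.73 and -1.49, FGL1 between -1.12 and -0.92, and both FGL2 intervals include 0.

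The chains were next set against each other within each array, which removes any factor common to a whole array. The levels of different features are not comparable as such, so only the change of a ratio between groups is read. The log2 ratio of FGG to FGA, on the feature with the highest mean of each gene, was -2.33, -2.36 and -2.33 in shASPP2, against -1.85, -1.44 and -1.38 in shNon. The log2 ratio of FGG to FGB was -2.05, -1.75 and -1.86 in shASPP2, against -1.24, -1.13 and -0.96 in shNon. Neither ratio had overlapping groups, and both were 0.78 lower in shASPP2 on the log2 scale (changes of -0.78 and -0.78), which is 1.72-fold and 1.71-fold less gamma relative to the partner chain. The ratio of FGA to FGB did not separate the groups. It was 0.28, 0.61 and 0.47 in shASPP2, against 0.61, 0.32 and 0.42 in shNon, with a change of 0.00.

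Other choices of feature gave the same direction. Every one of the 16 pairs of an FGG and an FGA feature gave a lower ratio in shASPP2, by -1.33 to -0.47 log2, and so did all 8 pairs of an FGG and an FGB feature, by -1.26 to -0.46. In all of these pairs the arrays of the groups did not overlap. The pairs reuse the same features and are not independent, and the share over other pairs of features was not computed. The 8 pairs of FGA and FGB features gave changes of -0.17 to 0.24, with 2 below 0 and overlap in all 8. Subtracting the random-probe level gave changes of -0.89 for FGG to FGA and -0.88 for FGG to FGB. Against FGL1, the changes were -0.61 for FGA, -0.62 for FGB and -1.39 for FGG, all without overlap. As the ratios come from the contrast by which the genes were chosen, they are given without a test. A fold change on an array also depends on the affinity and saturation of the probes, and the part of either in the unequal changes was not tested.

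**Figure D3:**
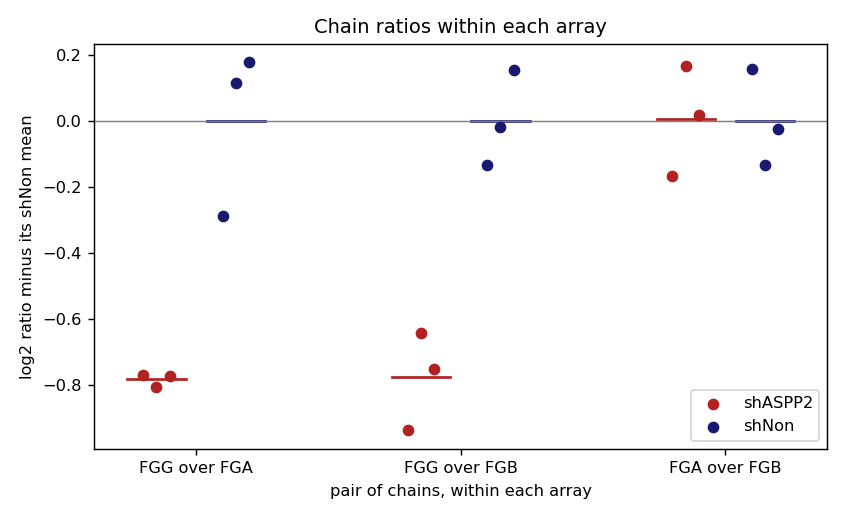
Log2 ratio of 2 chains within each array, less the mean of shNon for that ratio, with shASPP2 left of shNon; points are arrays and lines are group means. The means of both FGG ratios in shASPP2 lie at -0.78, while FGA over FGB scattered around 0 in both groups.

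The chain genes occupy 49.8 kb of chromosome 4 (155703595 to 155753352, hg18). Within 1 Mb on either side the array held 24 features of 12 other genes, none past the threshold (background 0.138%), also with trend and robust variance (background 2.11%), and their log2 fold changes ran from -0.74 to 0.51. Most of these neighbours, such as SFRP2, NPY2R and LRAT, were dim on at least 1 array, where RMA can compress a difference. The closest bright neighbour was PLRG1, a subunit of the spliceosome-associated Prp19 complex, 12.6 kb before FGB. It read 7867, 6703 and 6424 in shASPP2, against 7289.7, 8289 and 8373 in shNon. The groups overlapped, and the log2 fold changes of its features were -0.19 (95% interval -0.61 to 0.22) and -0.06 (95% interval -0.49 to 0.37). The intervals of both PLRG1 features lay above those of the 10 chain features. As the chain genes were chosen with this contrast known, that is a description and not a test. TMEM131L, 926.3 kb from the cluster, had a log2 fold change of 0.11 (95% interval -0.33 to 0.55). The locus LOC653782, 129.7 kb beyond FGG, had -0.05 with a wide 95% interval, -1.26 to 1.16. That interval overlapped those of some chain features, so its value says little about the FGG side.

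**Figure D4:**
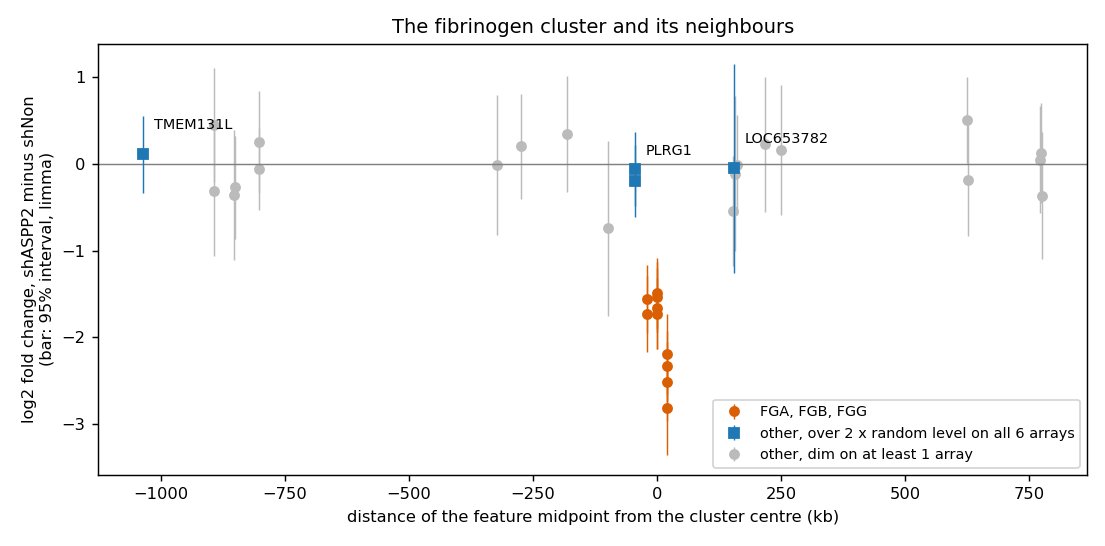
Log2 fold change (shASPP2 minus shNon, bars are 95% intervals) against the distance of each feature's midpoint from the centre of the chain genes in kb. The 10 chain features lie at or below -1.49, and the 4 bright features of neighbouring genes lie between -0.19 and 0.11.

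The wider pathway was covered by 8 lists with 130 distinct genes, each read on the feature with the highest mean intensity. None of the 130 was past the adjusted threshold of 0.05, against 0.14% of 23593 genes. At an unadjusted p of 0.05, 6.04% of all genes were lower and 5.61% higher in shASPP2, and the median log2 fold change of all genes was 0.01. With trend and robust variance, 1.21% of all genes were called lower and 1.06% higher. For 9.52% of genes the groups did not overlap with shASPP2 lower, and for 9.3% with shASPP2 higher.

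Of 13 liver transcription factors known to act on fibrinogen genes, 1 was lower and 2 were higher at the unadjusted level, and the median of the list was 0.35 log2. FOXA1, a pioneer factor of liver enhancers, read 350, 263 and 327 in shASPP2, against 553, 669 and 547 in shNon, without overlap. Its log2 fold change was -0.91 (SE 0.195, limma adjusted p = 0.194), and with trend and robust variance it passed (adjusted p = 0.0207). CEBPB, the C/EBP protein of the acute phase, went the other way, at 959, 1196 and 882 in shASPP2 and 520.3, 581 and 701 in shNon. Its log2 fold change was 0.75 (SE 0.206, limma adjusted p = 0.268), and 0.0300 was the adjusted p with trend and robust variance. HNF4A, the nuclear receptor at the centre of the hepatocyte network, averaged 3794 ± 605 in shASPP2 and 2562 ± 386 in shNon (SD, n = 3 each). All its features had positive log2 fold changes, from 0.29 to 1.37, and none was called. FOXA3, dim on some arrays, had 0.62 (SE 0.291). CEBPA at 0.13 and FOXA2 at -0.12 were bright and close to 0.

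Genes of interleukin 6 and gp130 signalling, the route of the acute-phase induction of fibrinogen, included 4 of 16 that were higher and 1 that was lower at the unadjusted level, with a median of 0.18 and none called in either fit. SOCS3, the feedback inhibitor that STAT3 induces, read 150, 112 and 166 in shASPP2, against 88.3, 68.6 and 33.4 in shNon. This is a log2 fold change of 1.26 (SE 0.368, limma adjusted p = 0.290), with 1 shNon array dim. IL6 itself had 0.91 (SE 0.266), also with 1 shNon array dim. The receptor chains were bright: IL6R averaged 2524 ± 82.1 in shASPP2 and 1789 ± 29.4 in shNon, and IL6ST (gp130) 2098 ± 221 in shASPP2 and 1417 ± 281 in shNon (SD, n = 3 each). For all 4 genes the groups did not overlap. STAT3 had a log2 fold change of 0.15, JAK1 0.20 and the glucocorticoid receptor NR3C1 0.00.

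Of 20 other acute-phase plasma proteins, 3 were lower and 2 higher at the unadjusted level, with a median of -0.17. The members that were bright on all 6 arrays had log2 fold changes between -1.09 and -0.01. That filter leaves out genes that were bright in shASPP2 and dim in shNon, such as HAMP and SAA2 below. No fall of the whole list is read from this range. Among the 9 genes over 2 times the random-probe level on at least 3 arrays the median was -0.06. CP (ceruloplasmin, the copper-carrying ferroxidase) read 9046, 6855 and 6593 in shASPP2, against 12138, 11313 and 12993 in shNon. C4BPA, an inhibitor of the classical complement pathway, read 2777, 2627 and 2408 in shASPP2, against 3694, 3473 and 4329 in shNon. Both had separate groups, with log2 fold changes of -0.71 (SE 0.195) and -0.55 (SE 0.178). Limma's adjusted p was 0.268 and 0.328, and the fit with trend and robust variance lowered it to 0.00348 and 0.0314. CFB (complement factor B) had -1.09 (SE 0.243) on one feature and -0.10 on the other. HAMP (hepcidin, the iron hormone, itself an interleukin 6 target) went the other way at 1.17 (SE 0.258). It read 181, 103 and 170.3 in shASPP2 and 73.5, 57.0 and 66.3 in shNon, where only 1 array was over the dim limit. Of the classic reactants, CRP, HP, APCS and LBP were dim on all 6 arrays. SAA2 was over the dim limit on 3 shASPP2 arrays and 1 shNon array, and SAA1 on 2 shASPP2 arrays only. Their log2 fold changes were 0.47 and 0.39, with overlapping groups.

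Among 14 clotting factors and cofactors, 4 were lower and none higher at the unadjusted level, with a median of 0.04 and none called in either fit. The median was -0.74 among the few genes at or above the median level of all features, which is the value of F2. It was -0.77 among the 5 genes over 2 times the random-probe level on at least 3 arrays. Of these 5, F10 and F7 were over that level on 3 shNon arrays but on 1 shASPP2 array. They passed the filter through the group where they were higher, so no fall of the whole list is read from this median. F5, the cofactor of the prothrombinase complex, read 392, 375 and 302 in shASPP2, against 620.1, 535 and 662 in shNon, a log2 fold change of -0.77 (SE 0.192, limma adjusted p = 0.235). F2 (prothrombin) read 154, 187 and 209.8 in shASPP2 and 369.9, 338 and 224 in shNon. Its log2 fold change was -0.74 (SE 0.247), and -0.47 on its second feature. These groups did not overlap. F10 and F7, both dim on most shASPP2 arrays, had -0.98 (SE 0.263) and -0.99 (SE 0.353). F3 (tissue factor) differed in the other direction, at 539, 503 and 590.0 in shASPP2 and 348, 443 and 468 in shNon.

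Of 19 anticoagulants and genes of fibrinolysis, 3 were higher and 3 lower at the unadjusted level, with a median of -0.13, which was 0.083 among the genes at or above the median level of all features. PLAT, the tissue plasminogen activator that starts fibrin breakdown, stood at the high end, at 529, 624 and 555 in shASPP2, against 112, 220.3 and 172 in shNon. Its log2 fold change was 1.81 (SE 0.269), and 1.70 on its second feature. It missed the threshold in the fit over all features (limma adjusted p = 0.0982) and passed it with trend and robust variance (adjusted p = 3.78e-04). PLAU (urokinase) had -0.56 (SE 0.184), and THBD (thrombomodulin, which makes thrombin activate protein C) 1.12 (SE 0.386), both with separate groups on these features. The second PLAU feature had -0.45 with overlapping groups, and other THBD features had 0.42 and 0.56. SERPINA5, dim on some arrays, had -0.77 (SE 0.280).

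The proteins that handle the chains in the endoplasmic reticulum were bright apart from ERO1B. Of 14 genes, 1 was lower and none higher at the unadjusted level, and the median was 0.11. The 1 lower gene was MCFD2, which with LMAN1 forms the cargo receptor for factors V and VIII. It read 386, 478 and 424 in shASPP2, against 847, 808 and 903 in shNon, with a log2 fold change of -0.99 (SE 0.174, limma adjusted p = 0.130, and 0.00369 with trend and robust variance). LMAN1 had -0.17 (SE 0.201). The chaperone CALR and SEL1L, a part of the degradation machinery, had 0.26 (SE 0.203) and 0.30 (SE 0.188), and DNAJC3 0.58 (SE 0.251).

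Of 20 other genes whose products carry a fibrinogen-like domain, 3 were higher and none lower at the unadjusted level, with a median of -0.04. It was 0.40 among the few genes at or above the median level of all features. Among the 5 over 2 times the random-probe level on at least 3 arrays it was 0.23. TNXB, a tenascin of the extracellular matrix, read 319, 279 and 310.3 in shASPP2, against 108, 142 and 124 in shNon, a log2 fold change of 1.29 (SE 0.184, limma adjusted p = 0.0872, and 0.0124 with trend and robust variance). Its second feature had 1.14. ANGPTL2, a secreted angiopoietin-like protein, had 0.57 (SE 0.209) and 0.63 (SE 0.168) on its 2 features. MFAP4 (0.56) and ANGPTL5 (0.48) were dim on all arrays.

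Among 14 receptors of fibrinogen, FGL1 and FGL2, 1 was lower and none higher at the unadjusted level, with a median of 0.11. ICAM1, an adhesion molecule that binds fibrinogen, read 4595, 5695 and 5086 in shASPP2, against 9099, 9653 and 8249 in shNon. Its log2 fold change was -0.81 (SE 0.178, limma adjusted p = 0.197, and 6.6e-04 with trend and robust variance). The fibronectin receptor chain ITGA5 had 0.32 (SE 0.188). The platelet receptor chains ITGA2B and ITGB3 were dim on all arrays, and LAG3, the FGL1 receptor of T cells, was over the dim limit on 1 shASPP2 array only.

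**Figure D5:**
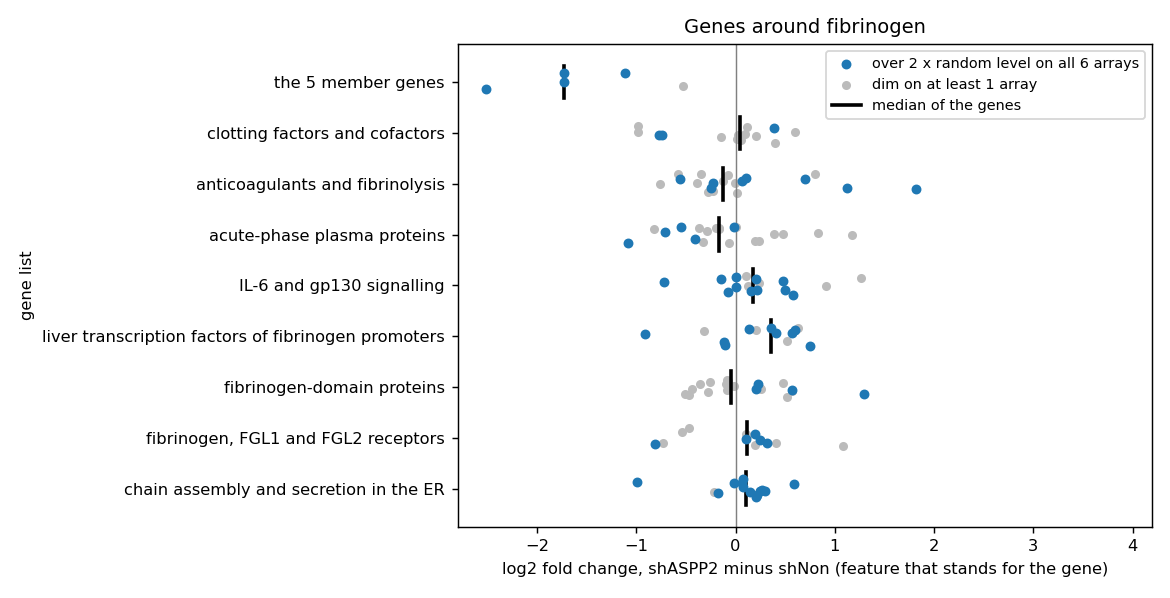
Log2 fold change (shASPP2 minus shNon) of the 5 member genes and of the genes in each of 8 lists; blue points were over 2 times the random-probe level on all 6 arrays, grey points were not, and black bars are list medians. The member genes other than FGL2 lie at -1.12 or lower, while the list medians lie between -0.17 and 0.35.

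The genes most like the chains over the 6 arrays were found by the root mean square distance, in log2 units, between a gene's profile (each array less the gene's mean) and the mean profile of the 3 chains. CLDN7, a tight junction claudin, was nearest at 0.143, next to FGB at 0.145 and FGA at 0.155. It read 562, 632 and 581 in shASPP2 and 2191, 1824 and 2471 in shNon. CDH1 (E-cadherin) followed at 0.202, TJP3 (the junction protein ZO-3) at 0.216, LCN2 (lipocalin 2) at 0.226 and PTGS1 (cyclooxygenase 1) at 0.235. FGG itself was at 0.272, since its difference was larger than the mean of the chains, in place 12 of all genes. FGL1 was at 0.458 and FGL2 at 0.988. Over 6 arrays in 2 groups, a gene is near by this measure when its group difference and its scatter within groups are alike.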

How the data were processed

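RNA of 6 HCC-LM3 cultures was hybridised in 1 colour (Cy3), 3 arrays per group by title. The authors deposited 1 linear intensity per feature and array, summarised by RMA (per the submitters' processing notes); the sources used here give neither its settings, which can compress dim features, nor any scan batch. The deposited value table was identical (0 differing cells). Of 45033 features, 45031 had 3 probes; the row of 2508 random-sequence probes entered no test. Depth has no meaning for arrays, and their number limits the precision. Symbols were updated through a RefSeq table (GRCh38.p14), by gene ID for 38916 features and by accession for 78; 3954 kept the file's name and 2085 had none. Positions are hg18.

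Log2 intensity was fitted with limma 3.58.1 (lmFit, eBayes) in R 4.3.3, group as the only term, two-sided, with Benjamini-Hochberg adjustment over all features; an exact permutation test could not go below 0.1. The fit was tested on simulated data. The member genes and the lists were chosen with earlier results of these data known, and member values are descriptions. Named genes are the members, the target, the 4 smallest p per list, genes within 1 Mb and the 5 nearest profiles; other list genes with values were chosen after their values were seen. Same-numbered arrays did not deviate together (correlations 0.06, -0.08 and -0.13), so numbers were not taken as pairs. Alternatives were array weights, a variance trend with robust fitting, the replicate block, a gene-level fit, cyclic loess, median centring, the value table, 2 filters for low signal, leaving out each array and, for the members, the mean of all features; subtraction of the random-probe level was chosen after seeing the data.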

Additional observations from a re-analysis of the deposited data

How the results depend on the processing

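The fold changes of FGA, FGB, FGG and FGL1 kept their direction under every alternative run. They stayed within -1.82 to -1.60, -1.86 to -1.65, -2.64 to -2.37 and -1.24 to -0.96. The FGG to FGA and FGG to FGB ratios stayed at -0.93 to -0.69 and -0.88 to -0.70. Several runs could not move these values: the identical value table, the 2 filters, trend and robust variance, the replicate block and the gene-level fit. Median centring could not move a ratio within an array. The ranges come from the other runs only. FGL2 ran from -1.09 to 0.06 and FGA to FGB from -0.07 to 0.09. The number of features past the threshold was less stable than the fold changes. Against 62, it was 405 with features at or above the median level, 207 with features over 2 times the random-probe level, 952 with trend and robust variance, 24 in the gene-level fit, 0 with the replicate block, and 0 to 17 without 1 array. The chain features called numbered 10 of 10 in each of these other than the replicate block (0), the gene-level fit (3 of 3) and the fits without 1 array (0 to 3). Among list medians, the filter at the median level gave -0.74 for clotting factors, 0.083 for anticoagulants and fibrinolysis and -0.55 for acute-phase proteins. It gave 0.40 for fibrinogen-domain proteins and 0.22 for receptors. The filter over the random-probe level gave -0.77 for clotting factors and 0.23 for fibrinogen-domain proteins. Both filters left dim genes out, and the second kept F10 and F7 through their shNon arrays. Without 1 array the medians were -0.05 to 0.10 (clotting), -0.24 to -0.03 (anticoagulants and fibrinolysis), -0.33 to -0.048 (acute phase), 0.081 to 0.21 (interleukin 6), -0.033 to 0.13 (fibrinogen domain), 0.10 to 0.17 (receptors) and 0.079 to 0.16 (endoplasmic reticulum). Neighbours near 0 changed sign: LRAT with array weights (0.090) and without 1 array (-0.21 to 0.13), and without 1 array LOC646816 (-0.017 to 0.47), LOC653782 (-0.52 to 0.32), MAP9 (-0.0027 to 0.35), RBM46 (-0.13 to 0.46), RNF175 (-0.57 to 0.0063) and SFRP2 (-0.15 to 0.081); the cause was not tested. Replicate numbers did not pair the arrays, and 1 of the 3 shASPP2 arrays correlated best with its own number. Dim features, FGL2 above all, limit what can be read.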

Other observations

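Among 15 hepatocyte markers, 3 were higher and 1 lower in shASPP2 at an unadjusted p of 0.05, and the median of the list was -0.01 log2. KRT8, a keratin of simple epithelia, read 12535, 14604 and 15857 in shASPP2, against 8716.5, 9522 and 8058.5 in shNon, a log2 fold change of 0.71 (SE 0.181, limma adjusted p = 0.247, and 0.00198 with trend and robust variance). RBP4, the plasma carrier of retinol, read 1858, 2789.5 and 2606 in shASPP2, against 1176, 1516 and 1326 in shNon, a log2 fold change of 0.84 (SE 0.221, limma adjusted p = 0.256, and 0.00674 with trend and robust variance). Its groups did not overlap, and it is a secreted liver protein whose difference ran opposite to that of the fibrinogen chains. TF (transferrin) had -0.39 (SE 0.169) with separate groups. APOH had -0.14 (SE 0.175) and AMBP 0.09, and the groups overlapped for both.

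Of 8 endothelial markers, PECAM1, a junctional adhesion molecule of endothelium, was bright on all 6 arrays, at 1063, 815 and 1025 in shASPP2 and 1927, 1901 and 1769 in shNon. Its log2 fold change was -0.96 (SE 0.183, limma adjusted p = 0.158, and 0.00123 with trend and robust variance). KDR, VWF, ERG and TEK were dim on all 6 arrays. STAB2 was over the dim limit on 3 shASPP2 arrays and 1 shNon array, CDH5 on 1 and 2, and CLEC4G on 2 shASPP2 arrays only. Of 8 platelet and megakaryocyte markers none was past an unadjusted p of 0.05, and of 12 macrophage and T cell markers 1 was, CSF1R, which was dim on all arrays.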
